A study of Mus musculus with 12 samples.

Results

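The T cell receptor constant genes and the CD3 chain genes were examined by RNA sequencing of resting B cells and of naive CD4+ T cells. The set was defined by name, as Trac, Trbc1, Trbc2 and Trdc for the constant regions of the receptor chains and Cd3g, Cd3d, Cd3e and Cd247 for the signalling chains. Of these 8 names, 7 were matched among the 41128 genes of the table, and Trdc, which encodes the constant region of the delta chain, was not analysed here. All 7 passed the filter on low values (1 or more adjusted TPM in 3 or more of the 12 libraries), which 12520 genes passed, and each did so through its T cell libraries alone, since no B cell library reached 1 for any of them.

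The libraries came from spleens of untreated C57BL/6J mice aged 6 to 8 weeks and formed 4 groups of 3, since each cell type was taken from mice of each sex. The B cells were resting cells lacking CD43. The T cells were CD4+ cells from which CD8a, CD25 and gamma delta receptor bearing cells were depleted, sorted as CD62L high and CD44 low cells without CD25. Mice were pooled, per the series' design text, and p-values measure only the spread between these libraries. In bulk samples fewer cells of a type and less RNA per cell cannot be told apart. B cell libraries are numbered 1 to 3 and T cell libraries 4 to 6 in each sex. Values are adjusted TPM, where TPM is a length-corrected share of transcripts and the adjustment is not described in the sources used here. Each value has a deposited lower and upper bound.

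The T cell receptor recognises antigens through a pair of chains, alpha and beta in most T cells or gamma and delta in a smaller lineage. Each chain joins a rearranged variable region to a constant region, which anchors the chain in the membrane and holds no signalling motif of its own. Signals leave the receptor through the CD3 gamma, delta, epsilon and zeta chains. Their cytoplasmic tails carry tyrosine motifs that the kinase Lck phosphorylates and that the kinase Zap70 then binds. The receptor reaches the cell surface only when the chains assemble. B cells use immunoglobulin with the Cd79a and Cd79b chains in the same role.

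The T cell libraries numbered 6, which are 1 of each sex, stood apart from the other 4 in markers of regulatory T cells. Il2ra, which encodes CD25, had 4.999 in female T cell 6 and 4.11 in male T cell 6 and at most 0.340 in the other 4. The transcription factor gene Ikzf2 had 13.4 and 11.3 against at most 2.07, and Foxp3, which defines regulatory T cells, had 2.57 and 1.82 against at most 0.735. The summed level of these 3 markers was 20.97 and 17.2 in the libraries numbered 6, 1.75 to 3.14 in the other T cell libraries and 0.594 to 1.44 in B cells. Male T cell 6 also had the highest total, 1453940 against a lowest total of 561020, of which the single gene Yam1 took 37.4%. Results below are given with and without both libraries numbered 6 where they differ.

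The labelled cell types were checked against their defining markers. In T cells Cd4 lay between 179.6 and 203 and Cd8a at no more than 0.256, although Cd8b1, the partner chain of Cd8a, lay between 5.25 and 8.11. The 4 B cell markers Cd79a, Cd79b, Ms4a1 and Pax5 summed to 0.896 to 4.91 in T cells and to 2220.4 to 2643 in B cells. The 5 T cell markers were Cd3d, Cd3e, Cd4, Lck and Tcf7, of which Cd3d and Cd3e belong to the set studied and are no separate check. In B cells these markers summed to 9.76 to 14.1, of which Lck made up 8.94 to 13.4, and Cd4 was at no more than 0.00594. Markers of other cells summed in T cells to 12.5 to 18.2 for natural killer cells (of which Prf1 made up 11.5 to 17.6), 1.06 to 4.55 for monocytes, 0.0461 to 2.56 for neutrophils, 2.04 to 43.1 for erythroid cells and 1.32 to 1.96 for plasma cells, and in B cells to 1.52 to 3.20, 8.95 to 13.1, 0.268 to 2.15, 0.611 to 196 and 6.03 to 7.67 in the same order. The B cell marker sum was 4.91 in female T cell 6 and 2.43 in male T cell 6, and no more than 1.82 in the other 4 T cell libraries.

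Among the constant genes, Trac encodes the alpha chain constant region and lies at chromosome 14, 54220521 to 54224206 (GRCm38, plus strand), 77.7 kilobases after the start of Trdc. Its adjusted TPM was 329.7, 350.3 and 242 in female T cells 4, 5 and 6 and 342, 354 and 286 in male T cells 4, 5 and 6. In the 6 B cell libraries it lay between 0.00967 and 0.138. The lowest T cell library was 1754 times the highest B cell library, and the lowest T cell library was the female one numbered 6.

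The beta chain has a pair of constant genes, Trbc1 and Trbc2, of which a cell uses 1 for its rearranged chain. Both lie on the plus strand of chromosome 6, Trbc1 from 41538218 to 41539881 and Trbc2 from 41546730 to 41548352, and their starts are 8.51 kilobases apart. Trbc1 had 348, 306 and 229 in female T cells 4 to 6 and 343, 299.6 and 246 in male T cells 4 to 6, against 0.0131 to 0.158 in B cells. Trbc2 had 819.9, 679 and 548 in the female and 816, 734 and 634 in the male T cell libraries, against 0.0164 to 0.145 in B cells. The T and B cell ranges of both genes lay far apart, and in each sex the T cell library numbered 6 was the lowest for both genes.

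The coding sequences of the beta constant genes are close to identical, which matters for how reads are split between them. Over the 500 coding bases of their first 3 exons, read from GENCODE M21 transcripts, 481 bases were the same (96.2%). The first exon, of 375 bases, differed at 1 position (C260A, counted from 1 at the first coding base, with the Trbc1 base first), and the longest run without a difference was 259 bases. The second exon, of 18 bases, held 3 differences and the third, of 107 bases, held 15. The third exon is shown because most differences lie there; capitals mark the bases that differ between the genes (GRCm38, plus strand, chr6:41539229-41539335 for Trbc1 and chr6:41547772-41547878 for Trbc2).
Trbc1: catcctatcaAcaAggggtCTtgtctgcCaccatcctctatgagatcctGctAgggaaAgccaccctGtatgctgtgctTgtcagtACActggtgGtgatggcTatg
Trbc2: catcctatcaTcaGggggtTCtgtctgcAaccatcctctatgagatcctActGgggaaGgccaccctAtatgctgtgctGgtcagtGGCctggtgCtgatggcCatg

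**Figure D1:**
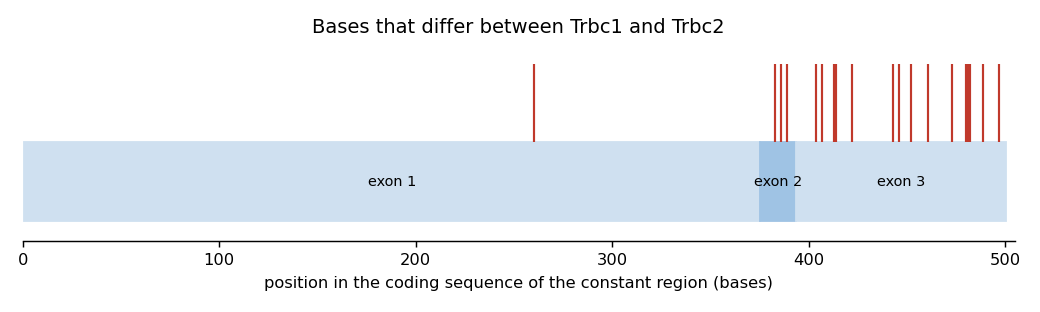
Positions of the 19 bases that differ between Trbc1 and Trbc2 (red lines) along the 500 coding bases of exons 1 to 3, counted from the first coding base. The first exon holds 1 difference at position 260, and the other 18 lie between positions 383 and 497.

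The level of Trbc2 was above that of Trbc1 in all 6 T cell libraries, with a ratio of 2.35, 2.22 and 2.39 in female and 2.38, 2.45 and 2.57 in male T cells 4 to 6. Trbc1 accordingly made up 29.5% ± 1.01 (SD, n = 6) of the summed beta constant level. The coefficient of variation was 4.85% for the ratio of Trbc2 to Trbc1, 16.6% for Trbc1 and 15.1% for Trbc2, and without both libraries numbered 6 it was 4.12%, 7.71% and 8.91%. Since reads from the shared stretches had to be divided by the quantification, the ratio is uncertain by an amount that the files do not give beyond the deposited bounds, which in T cells spanned a factor of at most 1.11 for Trbc1 and 1.06 for Trbc2. The mean of log2(Trbc1/Trbc2) was -1.21 ± 0.06 (SD, n = 3) in the female T cell libraries and -1.30 ± 0.06 (SD, n = 3) in the male ones, a difference of 0.09 (two-sided exact permutation p = 0.2, the smallest possible being 0.1). Within same-numbered pairs, which deviated together, the female value was higher in 3 of 3, by 0.01 to 0.14 (exact permutation p = 0.25, the smallest that 3 pairs allow). The summed beta level was 3.16 ± 0.279 (SD, n = 6) times that of Trac.

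Variable segments of the same chains were summed for comparison. The 109 Trav segments in the table summed to 1.15 ± 0.0774 (SD, n = 6) times Trac, and the 23 Trbv segments to 0.722 ± 0.0417 (SD, n = 6) times Trbc1 and Trbc2 together. The libraries numbered 6 had the 2 lowest Trav sums, 303 and 297, against 384 to 401 in the other 4. Their Trbv sums were also the lowest, 584 and 653 against 752 to 784.

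The gamma and delta chains stayed at or near the bottom of the scale. The 4 gamma constant genes in the table (Tcrg-C1 to Tcrg-C4) summed to 0.188 to 0.236 in T cell libraries 4 and 5 and to 0.755 and 1.01 in female and male T cell 6, and none passed the filter. Of 21 gamma and delta genes in the table, 2 passed, the delta variable genes Trdv1, with 1.45 to 2.06 in T cells, and Trdv2-2, with 1.18 to 4.35. Both lie within the alpha locus. The other gamma delta lineage markers Sox13 and Zbtb16 were at no more than 0.00228 and 0.0226 in T cells.

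The genes Cd3g, Cd3d and Cd3e form a cluster of 40.1 kilobases on chromosome 9. Cd3g (44969572 to 44980431, minus strand) and Cd3d (44981786 to 44987339, plus strand) face away from each other, with their start sites 1355 bases apart, and Cd3e (44998740 to 45009627, minus strand) follows. The CD3 gamma chain gene Cd3g had 512, 516 and 372 in female T cells 4, 5 and 6 and 496, 471 and 418 in male T cells 4, 5 and 6, against 0.00402 to 0.142 in B cells. The delta chain gene Cd3d had 216, 208 and 166 in females and 205, 192 and 189 in males, against 0.191 to 0.263 in B cells. For both genes the lowest T cell library was female T cell 6, and all T cell libraries lay far above all B cell libraries.

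The epsilon chain, which pairs with both the gamma and the delta chain, had the lowest transcript level of the set. Cd3e had 76.6, 66.0 and 66.1 in female T cells 4, 5 and 6 and 67.6, 62.3 and 75.7 in male T cells 4, 5 and 6. Here the highest male library was the one numbered 6, unlike in the other genes. In B cells Cd3e lay between 0.0156 and 0.0790. The zeta chain is encoded apart from the cluster by Cd247, at chromosome 1, 165788681 to 165877277 (plus strand). Cd247 had 275, 246 and 199 in female and 244, 226 and 216 in male T cells 4 to 6, and its B cell values of 0.552 to 0.747 were the highest of the set. The last 12.1 kilobases of Cd247 overlap Pou2f1 on the opposite strand. The Pou2f1 entry matched by annotation was listed in B cells at 4.06 to 5.86 and in T cells at 2.12 to 3.99. Whether the counting used strand is not given in the sources used here, so reads there could not be told apart with certainty.

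The 250 bases before the start sites of the neighbouring Cd3g, Cd3d and Cd3e genes are shown because these genes share a cluster and a cell type while their levels differ. They come from RefSeq (GRCm38.p6; chr9:44980432-44980681 minus strand for Cd3g, chr9:44981536-44981785 plus strand for Cd3d and chr9:45009612-45009861 minus strand for Cd3e), 5′ to 3′ on the strand of the gene, and capitals mark matches to the letters listed after them.
Cd3g: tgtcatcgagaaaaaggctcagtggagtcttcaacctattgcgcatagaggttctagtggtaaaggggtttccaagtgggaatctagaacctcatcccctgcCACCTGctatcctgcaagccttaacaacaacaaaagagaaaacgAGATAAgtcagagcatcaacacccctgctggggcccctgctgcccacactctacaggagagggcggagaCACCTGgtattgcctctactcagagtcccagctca
Cd3d: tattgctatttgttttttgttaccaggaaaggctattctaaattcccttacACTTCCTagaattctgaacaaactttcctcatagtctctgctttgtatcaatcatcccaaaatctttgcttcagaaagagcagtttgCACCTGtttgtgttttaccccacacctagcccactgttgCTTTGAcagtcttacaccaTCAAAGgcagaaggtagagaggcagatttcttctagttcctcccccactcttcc
Cd3e: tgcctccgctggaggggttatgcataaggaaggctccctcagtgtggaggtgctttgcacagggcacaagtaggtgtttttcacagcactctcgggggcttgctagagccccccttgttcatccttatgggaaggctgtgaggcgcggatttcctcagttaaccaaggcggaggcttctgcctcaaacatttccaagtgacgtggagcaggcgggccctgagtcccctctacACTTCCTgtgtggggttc

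Letters were searched on both strands, and no match overlapped another. Distances are counted from the RefSeq starts. For Cd3e the GENCODE gene reaches 45009627, inside the window shown, so its match lies across the GENCODE start. The E-box, bound by E proteins, was searched as CAGCTG or as CACCTG. Motifs of T cell transcription factors were searched as CTTTGA for the TCF and LEF factors, AGATAA for the GATA factors, ACTTCCT for the ETS factors and TGTGGT for the RUNX factors. The TATA box was searched as TATAAA. The E-box was in 3 of the 4 CD3 promoters, 148 and 35 bases before the start of Cd3g, 112 before Cd3d and 10 before Cd247, and in 27.7% of 32851 promoter windows of the same length. ACTTCCT was also in 3 of the 4, 199 bases before Cd3d, 18 before Cd3e and 58 before Cd247, against 7.69% of all windows. CTTTGA was found in Cd3d alone, at 73 and 54 bases (13.8% of windows), and AGATAA in Cd3g alone, at 104 bases (9.99%). Neither TGTGGT (14% of windows) nor TATAAA (12.4%) was in any of the 4. The motifs were chosen with these sequences in view, and a match is a description of letters, not of binding.

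**Figure D2:**
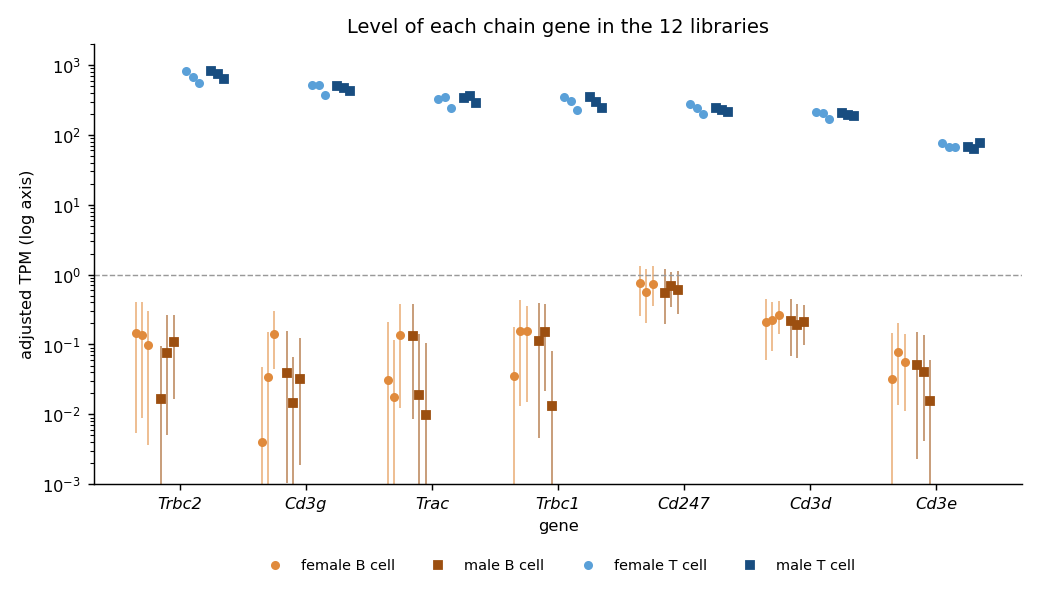
Adjusted TPM (log axis) of the 7 chain genes in the 12 libraries, 3 points per group, with lines from the deposited lower to the upper bound; some lower bounds in B cells lie under the axis. The lowest T cell point is 62.3 and the highest B cell point 0.747, and the bounds are short in T cells and long in B cells.

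T and B cells were compared to describe how far the transcripts of the receptor separate these lymphocytes. All 7 genes were higher in T cells and past the threshold (limma, Benjamini-Hochberg adjusted p under 0.05), which 41.6% of the genes tested were in this direction. None of the 7 overlapped between cell types, with all 6 T cell above all 6 B cell libraries, as for 29.7% of the genes tested. The log2 fold change on the log2(adjusted TPM + 1) scale was 9.32 (SE 0.09) for Trbc2, 8.79 (SE 0.08) for Cd3g, 8.22 (SE 0.09) for Trac and 8.05 (SE 0.10) for Trbc1, and these were the 4 largest increases among the 12520 genes tested at this pseudocount. Cd3d had 7.33 (SE 0.06), Cd247 7.15 (SE 0.08) and Cd3e 6.06 (SE 0.06), at ranks 10, 15 and 30. The adjusted p values of the 7 genes in limma lay between 6.37e-17 and 1.48e-15. Since each gene passed the filter through its T cell libraries alone, the direction was set beforehand and these p values are no separate support.

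The size of these differences is set partly by the pseudocount, because the B cell values lie below it. With a pseudocount of 0.1 the 7 fold changes ran from 8.29 to 11.84 and the ranks changed, Trbc1 to 6, Cd3d to 14, Cd3e to 21 and Cd247 to 39, while Trbc2, Cd3g and Trac stayed at 1, 2 and 3. The fold changes ran from 6.00 to 9.44 over the other alternatives. On the linear scale, the lowest T cell library was 266 (Cd247) to 3770 (Trbc2) times the highest B cell library, and 147 to 1300.2 times when the lower bound in T cells was set against the upper bound in B cells. The B cell mean was 0.276% of the T cell mean for Cd247, 0.112% for Cd3d and 0.00952% to 0.0657% for the other 5 genes. The upper bound was at least 2.98 times the lower in every B cell library for all 7 genes, so differences among the B cell values have little precision. Without both T cell libraries numbered 6, the fold changes ran from 6.04 for Cd3e to 9.44 for Trbc2.

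**Figure D3:**
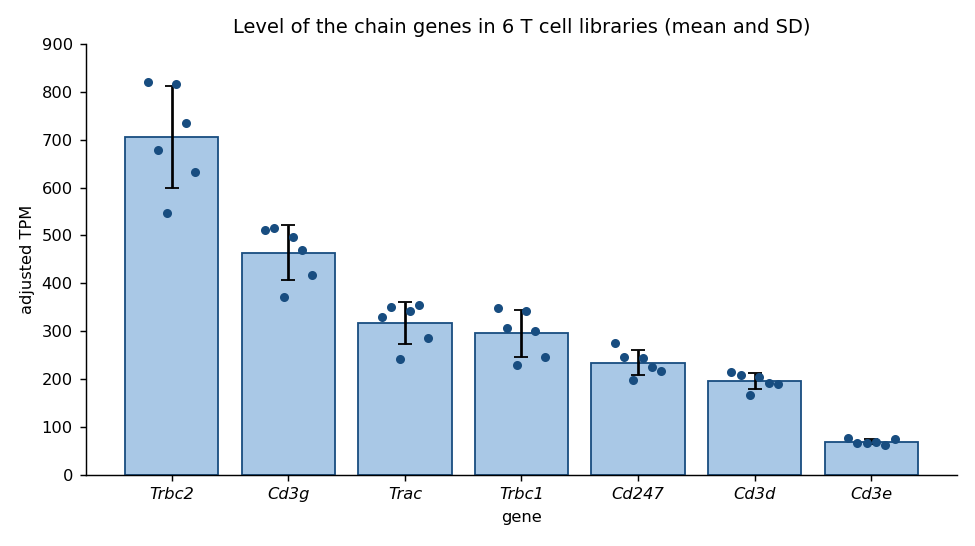
Mean adjusted TPM (bars) with the SD over 6 T cell libraries and the value of each library (points) for the 7 chain genes, in descending order. The means run from 705 for Trbc2 to 69.1 for Cd3e.

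Within T cells the genes differed in level, per length, by an order of magnitude. Trbc2 had 705 ± 107 (SD, n = 6), Cd3g 464 ± 57.7, Trac 317 ± 44.4 and Trbc1 295 ± 49.1, followed by Cd247 with 234 ± 26.9, Cd3d with 196 ± 17.5 and Cd3e with 69.1 ± 5.76. Neighbours in this order were compared within libraries by exact two-sided sign-flip tests, adjusted over the 6 pairs. The order was taken from the same 6 libraries, so the pairs and their directions were chosen from the values tested. The p values are therefore no separate support for the order. Trbc2 exceeded Cd3g 1.51-fold, Cd3g exceeded Trac 1.47-fold, Trbc1 exceeded Cd247 1.25-fold, Cd247 exceeded Cd3d 1.19-fold and Cd3d exceeded Cd3e 2.83-fold, each in 6 of 6 libraries (exact permutation p = 0.03125 each, the smallest that 6 libraries allow, adjusted p = 0.0375). Trac was above Trbc1 in 4 of 6 libraries (ratio 1.08, range 0.946 to 1.18, exact permutation p = 0.156, adjusted p = 0.156), so these neighbours did not differ beyond their spread. Over libraries the ranges of Trbc1 and Cd247 overlapped, as did those of Cd247 and Cd3d, so these pairs are ordered within a library and not across libraries. The 6 libraries were taken as independent units, although same-numbered ones deviated together. Averaged over same-numbered libraries, these 5 pairs kept their order in 3 of 3 numbers and Trac to Trbc1 in 2 of 3, and no pair can pass (smallest exact permutation p = 0.25). With fewer libraries the test also cannot pass, since the smallest p is 0.0625 with 5 libraries and 0.125 with 4, and without both libraries numbered 6 the ratios were 1.52, 1.45, 1.06, 1.31, 1.21 and 3.01 in the same order.

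The levels per length rest on the transcript models used. For Trac the table lists 1 model, of 413 bases in GENCODE M21 and holding coding bases only, where M21 has 2. For Trbc1 it lists 1 model of 512 bases, also of 2. For Trbc2 it lists 1 model, of 692 bases in M21, where its version differs. Cd3d has 1 listed model where M21 has 3 and Cd3e has 1 where M21 has 4, while Cd3g has 3 models and Cd247 has 9. The ratios of Trbc2 to Trbc1 and of the summed beta level to Trac rest on these models too. An order between genes with such unlike models is therefore less firm than a comparison of 1 gene between libraries.

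The spread of the ratios between CD3 chains depended on the libraries numbered 6. The coefficient of variation over 6 T cell libraries was 3.75% for Cd247 to Cd3d and 4.90% for Cd3g to Cd3d, and it was 9.99% for Cd3d to Cd3e, 10.9% for Cd247 to Cd3e and 14.6% for Cd3g to Cd3e. Without both libraries numbered 6 it was 3.86%, 1.99%, 4.74%, 1.71% and 6.64% in the same order, so that the zeta to epsilon ratio then varied less than the zeta to delta ratio. The Cd3g to Cd3e ratio was 5.63 and 5.53 in the libraries numbered 6 and 6.68 to 7.82 in the other 4. Trac to Cd3e was 3.66 and 3.78 against 4.30 to 5.68, while Trac to Cd3g was 0.651 and 0.684 against 0.645 to 0.753, which overlap.

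**Figure D4:**
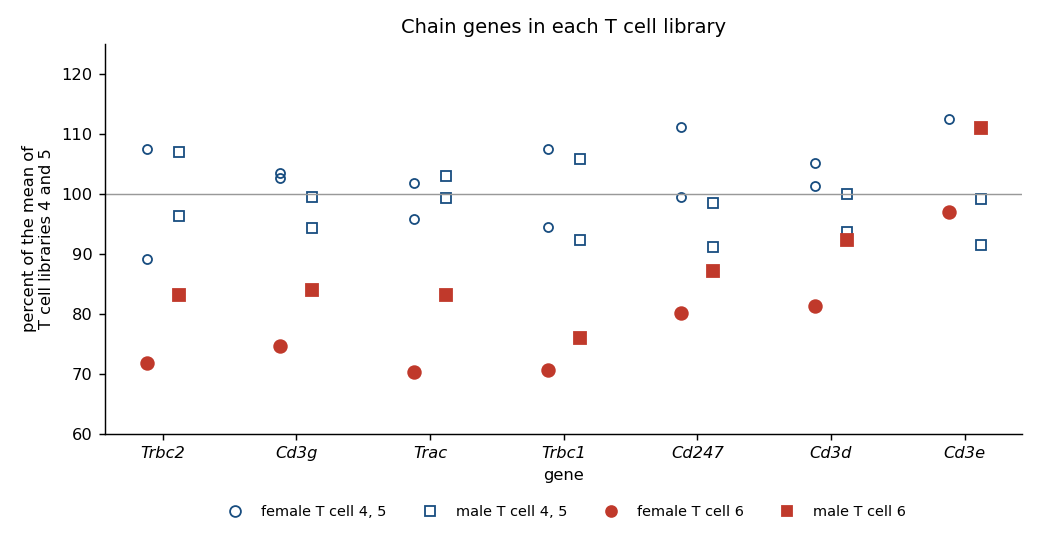
Adjusted TPM of each chain gene in the 6 T cell libraries as a percent of the mean of the 4 libraries numbered 4 and 5 (circles female, squares male). Filled red symbols are the libraries numbered 6, which lie at 70.4% to 92.3% for every gene other than Cd3e, where they lie at 97.0% and 111%.

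For 6 of the 7 genes, all except Cd3e, both libraries numbered 6 lay below the other 4 T cell libraries, as did 18.6% of the genes tested. The count was also 6 of 7 under median-ratio scaling, where 17.4% of the genes tested lay below, and when each library was scaled to sum to 1000000, where 14.4% did. Female T cell 6 had 70.0% (Trbc1) to 92.7% (Cd3e) of the mean of female T cells 4 and 5, against a median of 96.8% over the genes tested. Male T cell 6 had 76.7% (Trbc1) to 116% (Cd3e) of the mean of male T cells 4 and 5, against a median of 100.5%. Without these libraries the T cell means were 762 ± 67.9 (SD, n = 4) for Trbc2, 344 ± 10.9 for Trac, 324 for Trbc1 and 499 ± 20.6 for Cd3g. The regulatory T cell markers moved with these libraries in the opposite direction, and their part in the result was not tested.

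The sexes were then compared for each gene. In T cells the female minus male difference of the 7 genes lay between -0.10 (Trbc2) and 0.06 (Cd247) on the log2 scale, with SE of 0.09 to 0.15, and in B cells between 0.01 (Trac) and 0.08 (Trbc2). No gene of the set was past the threshold in T cells or in B cells (0 of 7 in each, limma), and none had an unadjusted p under 0.05, the lowest being 0.43 in T cells and 0.541 in B cells. Of all genes tested, 0.104% were past it in T cells (13 genes, or in T cells alone 10 without and 5 with the replicate block) and 0.144% in B cells (18 genes, or 5 in B cells alone), and 319 and 373 had an unadjusted p under 0.05. The 95% intervals of the 7 differences reached, at their extremes over the genes, from -0.39 to 0.30 in T cells and from -0.29 to 0.36 in B cells. Single genes had narrower intervals, such as Cd3e in T cells with -0.17 to 0.21. A difference inside the interval of a gene is compatible with its values.

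The difference of the sex effects between T and B cells was tested as an interaction in the same limma fit. It lay between -0.19 (Trbc2) and -0.01 (Cd3e) for the 7 genes, 0 of which were past the threshold, with a lowest unadjusted p of 0.327. Over all genes 0% were past it, and 295 had an unadjusted p under 0.05. The 95% intervals of the 7 genes reached from -0.58 to 0.41.

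The other parts of the receptor machinery followed a list of 24 partners and regulators, of which 22 passed the filter. Of these, 19 were higher in T cells (as were 41.6% of the genes tested) and 3 in B cells (as were 31.4%). The median log2 fold change was 4.14, against 0.09 over all genes tested and 8.05 over the 7 chain genes. Cd4, Cd8b1, Cd6, Cd28, Zap70, Lat, Themis, Trat1, Sla2 and Ubash3a passed the filter through T cell libraries alone. Cd8a passed it through B cell libraries alone. The direction of these genes was set beforehand, so the counts and the median are no separate support. Of all calls 57.02% were higher in T cells, a share that became 29.2% when each library was scaled to sum to 1000000, which moved the median of all genes to -0.25.

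Among the coreceptors and other surface receptors, Cd4 had a log2 fold change of 7.58 (SE 0.05), Cd28 of 6.91 (SE 0.07), Cd6 of 6.81 (SE 0.05) and Cd5 of 6.53 (SE 0.10). Cd2, an adhesion receptor, was expressed in both cell types, with 227 to 299 in T cells and 121 to 135 in B cells (log2 fold change 1.05). Cd8b1 rose by 2.95 in T cells and Cd8a was higher in B cells (log2 fold change -0.99), where it had 0.591 to 2.31. The kinases Zap70, Lck and Fyn were all higher in T cells. Zap70 had 61.0 to 81.0 against at most 0.722 (5.57, SE 0.08) and Lck 260.4 to 325 against 8.94 to 13.4 (4.71, SE 0.09). Fyn, which is related to Lck, had 111 to 129 against 15.7 to 20.2 (2.70, SE 0.08).

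Adaptors downstream of the kinases were likewise higher in T cells. Lat, the membrane adaptor, had 195 to 248 in T cells and a highest B cell value of 0.594 (7.35, SE 0.08), Themis had a log2 fold change of 6.77, Trat1 of 6.04 and Lcp2, which encodes SLP-76, of 5.56. Negative regulators that act inside the cell were divided. Ubash3a (5.20) and Sla2 (3.58) were higher in T cells. Sla, which encodes an adaptor that lowers receptor levels, was higher in B cells (-0.44, adjusted p = 0.000491, limma). The ubiquitin ligase gene Cblb was higher in B cells on average (-0.29, adjusted p = 0.0122, limma). Its libraries overlapped between cell types, with 17.7 to 25.4 in T cells and 22.9 to 27.3 in B cells. Tespa1, Rhoh, Nck1 and Nck2 were expressed in both cell types and had log2 fold changes of 0.69, 0.54, 0.42 and 1.19. The first 3 of these were no longer past the threshold when each library was scaled to sum to 1000000 (0.33, 0.17 and 0.05). The surrogate alpha chain gene Ptcra and the Fc receptor gamma chain gene Fcer1g, which can stand in for zeta, did not pass the filter, at no more than 0.0450 and 0.390 in T cells.

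**Figure D5:**
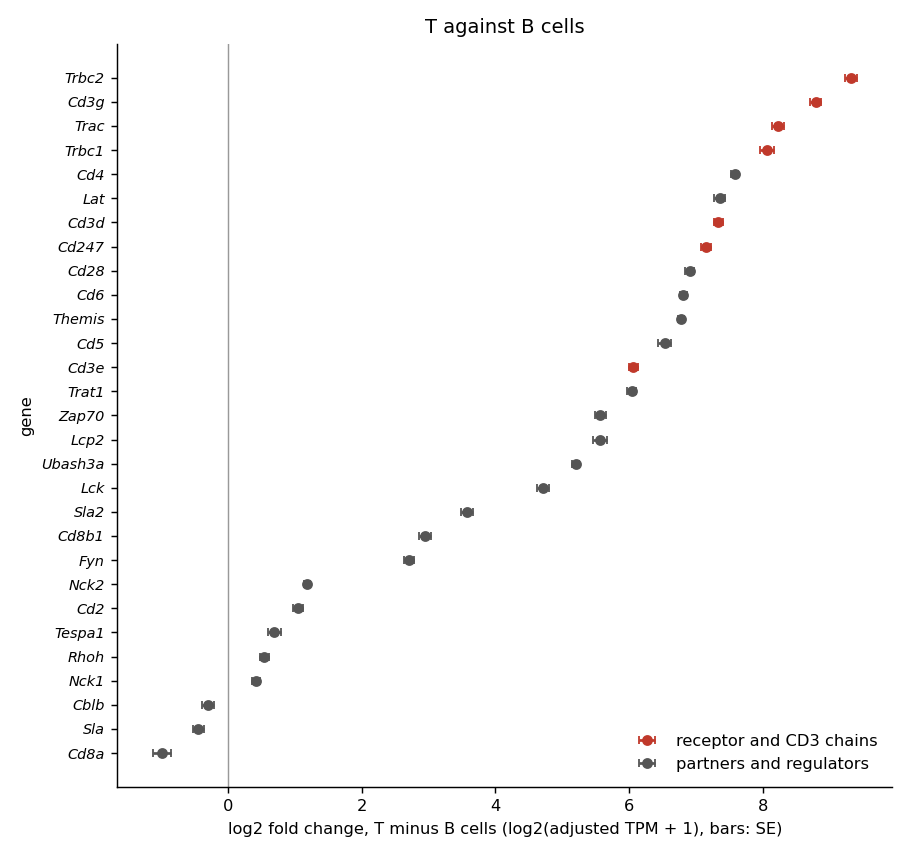
Log2 fold change of T against B cells, on the log2(adjusted TPM + 1) scale with SE bars, for the 7 chain genes (red) and the 22 tested partners and regulators (grey). The chain genes run from 6.06 to 9.32, and the partners from -0.99 for Cd8a to 7.58 for Cd4.

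Of 3 recombination genes, 1 passed the filter, through its T cell libraries alone, and was higher in T cells. Rag1, which cuts receptor loci during development, did not pass the filter, with 0.821 to 1.70 in B cells and a highest T cell value of 0.0126, nor did Rag2. Dntt, which adds bases at the joints, had 6.50 to 7.96 in T cells and a highest B cell value of 0.0112 (log2 fold change 2.99, SE 0.06). Of the B cell antigen receptor, all 4 genes analysed were higher in B cells, Cd79b with a log2 fold change of -9.11 (SE 0.16), Igkc with -9.05 (SE 0.21) and Cd79a with -8.01 (SE 0.11). Ighm, the fourth, differed less, with 2408 to 2996 in B cells and 157 to 215 in T cells (-3.79, SE 0.09).

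Neighbours of the loci were compared to see how far the difference reached along the chromosome. Ephb6, a receptor gene 57.1 kilobases after Trbc2, had 12.8 to 16.6 in T cells and a highest B cell value of 0.00192 (log2 fold change 3.96, SE 0.07). Ephb6 passed the filter through its T cell libraries alone. Dad1, 11.3 kilobases after Trac, was expressed in both, with 36.0 to 58.7 in T cells and 28.9 to 41.8 in B cells (0.48, SE 0.11, adjusted p = 0.00239, limma), and this difference was 0.10 when each library was scaled to sum to 1000000 (adjusted p = 0.677, limma). Ube4a, 4 kilobases beyond the 3′ end of Cd3g, had 17.2 to 21.7 in T cells and 17.5 to 21.9 in B cells. Its difference was -0.06 (SE 0.08, adjusted p = 0.539, limma), which became -0.43 (adjusted p = 0.0495, limma) under that scaling. Creg1, 13.4 kilobases before Cd247, had 10.3 to 12.4 and 6.02 to 9.65 (0.51, SE 0.09), a difference that became 0.17 (adjusted p = 0.47, limma) under that scaling. Pou2f1, the neighbour that overlaps Cd247, was higher in B cells (-0.69, SE 0.10, adjusted p = 5.87e-05, limma). The name Pou2f1 stood for more than a single entry, and these values are of the entry matched by annotation. Under that scaling the entries had -1.02 and -1.71. Olfr1507, Prss2 and Mpzl2 did not pass the filter.

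The genes most like the mean profile of the CD3 chains were sought, antigen receptor genes left out. The measure was the smallest root mean square difference of centred log2 values over the 12 libraries. The nearest genes were Als2cl (0.10), Prkcq, a protein kinase C (0.12), Lat (0.12), Cd4 (0.13) and Il7r, the interleukin 7 receptor (0.14). The chains themselves lay at 0.02 (Cd3d), 0.10 (Cd247), 0.64 (Cd3e) and 0.73 (Cd3g) from that mean. For the mean profile of the 3 constant genes the nearest were Tcf7, which encodes the transcription factor TCF1 (0.34), Thy1 (0.41), Cd4 (0.49), Igfbp4 (0.50) and Lat (0.60). Trac lay at 0.17, Trbc1 at 0.24 and Trbc2 at 0.40 from that mean. With 6 libraries of each cell type, this measure is set mostly by the size of the difference between the cell types.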

How the data were processed

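RNA was freed of ribosomal RNA and sequenced from strand-specific libraries, per the labels, and the submitters' processing notes name Trim Galore, FastQC, STAR and mm10. The authors deposited a signal, adjusted TPM, with lower and upper bounds for each gene and library. The quantifier, the adjustment and the level of the bounds are not given in the sources used here. The values are not counts and depth is unknown, so precision was read from the bounds. Some labels call the material genomic DNA, and the values were treated as RNA.

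Groups came from the labels. log2(adjusted TPM + 1) was fitted with limma 3.58.1 (R 4.3.3), 4 group means and a mean-variance trend, for genes at 1 or more in at least 3 libraries, with Benjamini-Hochberg adjustment over all 12520 genes. The fits were tested on simulated data. Other steps used Python 3.11.15. Coordinates are from GENCODE M21 (GRCm38), which matched 97.9% of genes. All gene lists and members were chosen with earlier results of these data known. Some listed genes are not reported here and were left out of their lists. Genes named are the members, the listed pathway and marker genes and the nearest protein-coding neighbours of each locus. The 5 genes most like the mean profile of each chain type are also named. Same-numbered female and male T cell libraries deviated together from their group means (r = 0.72, 0.55 and 0.52 for numbers 4, 5 and 6, over genes), so the number was taken as a block in an alternative.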

Additional observations from a re-analysis of the deposited data

Results flagged for a closer look

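Each set of 6 libraries of a cell type was examined for a value far from the others, for the 7 genes in T and B cells and for their ratios and sums in T cells. Of 29 sets, 1 was past Dixon's critical value, and chance flags about 1 in 20. It was Cd3g in B cells, where female B cell 3 had 0.142 and the other 5 libraries at most 0.0392. The deposited bounds of that value were 0.0447 and 0.301, and the level remained far below the lowest T cell value of 372.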

How the results depend on the processing

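All 7 genes kept their direction and stayed past the threshold for T against B cells in each of 20 alternatives, and none was past it in any sex comparison (lowest adjusted p 0.65 in T cells, 0.818 in B cells and 0.639 for the interaction). The table gives no depth, so low B cell values rest on wide bounds. With no filter, 24591 genes were past the threshold for T against B cells against 9134, 10607 against 13 for sex in T cells, 10985 against 18 for sex in B cells and 11201 against 0 for the interaction. When each library was scaled to sum to 1000000 these were 23 in T cells, 36 in B cells and 16 for the interaction, and the differences of the 7 genes between the sexes in T cells were 0.19 to 0.35 while the median of all genes was 0.25. A pseudocount of 0.1 gave 24 in T cells and 1 for the interaction. In T cells alone 10 genes were past it without and 5 with the replicate block. With same-numbered T cell libraries paired (a replicate block chosen after seeing the data), 0 of the 6 neighbouring pairs can pass, and the Trbc1 to Trbc2 difference was 0.09 as without it. The B cell libraries with the same number did not deviate together (r = -0.17, -0.04 and -0.34), and in B cells alone 5 genes were past it without and 5 with the replicate block. Leaving out 1 library gave 0 to 3 genes for the interaction, 3 without female T cell 6 (and 3 without both libraries numbered 6, an alternative chosen after seeing the data), and 0 to 0 of the 6 neighbouring pairs, 5 of which passed with all libraries (0 also without both), since so few libraries cannot reach the threshold. The list counts stayed at 19 and 3, except 16 higher in T cells after rescaling to that total and 4 higher in B cells with no filter. The causes were not tested.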
